A study of Rattus norvegicus with 12 samples.

Results

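A panel of 10 genes in common use as markers of fibroblasts and other mesenchymal cells was followed through 12 RNA sequencing libraries of rat cells. The genes were Thy1, S100a4, Vim, Pdgfra, Pdgfrb, Dcn, Lum, Fap, Postn and Eng, and each was found by its symbol in the deposited table of expression values. Of these, 9 had a row among the 18344 rows of the table, and Fap was not analysed here. Mesenchymal cells hold their shape with filaments of vimentin, answer platelet-derived growth factors (PDGFs) through a pair of receptor tyrosine kinases, and build the extracellular matrix around collagen fibrils. No gene of this panel is particular to fibroblasts. Vimentin and S100a4 are made by many cultured cells, Pdgfra also by oligodendrocyte precursors, Pdgfrb by pericytes, Thy1 by neurons and Eng by endothelial cells.

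The cells are named H9C2, a line from embryonic rat heart used as a myoblast model, while another label of the same libraries gives rat astrocytes. All 12 libraries were exposed to oxygen-glucose deprivation and reperfusion (OGD/R), a culture model of ischaemia, and no library without it was used here. The 4 groups of 3 libraries were OGD/R with NC, with CIRBP, with si-NC or with si-CIRBP, and each library is titled a biological replicate. CIRBP is the cold-inducible RNA-binding protein. The sources used here do not say how CIRBP was supplied, or whether both control groups shared cells, vector and day. Values are FPKM, fragments scaled to transcript length and library size, and so can be compared between genes. Since every row resolved into whole fragments, depth could be read back as 24205479 to 29652952 fragments per library.

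Cirbp itself stood at 19.0, 19.8 and 20.1 FPKM in NC and at 34.3, 36.5 and 36.5 FPKM in CIRBP. In si-NC it stood at 29.0, 24.2 and 27.0 FPKM and in the libraries labelled si-CIRBP at 26.5, 28.6 and 27.7 FPKM. The si-CIRBP group therefore goes against its label, with a log2 change of 0.05 in Cirbp (adjusted p = 0.609 with limma), and no loss of Cirbp is assumed for it.

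Several defining markers of the named cell types were low or at 0 in NC and CIRBP, though not all genes of the lists were. Nkx2-5, a cardiac transcription factor, was listed at 0 in all 6 NC and CIRBP libraries and at 0.0537 to 1.97 FPKM in the other 6. Of 14 skeletal and cardiac muscle markers with a row, 12 had a mean under 1 FPKM in NC and in CIRBP. Myod1, the myogenic transcription factor, lay at or under 0.0819 FPKM in NC and CIRBP and between 1.74 and 21.6 FPKM in the si groups. The astrocyte marker Aldh1l1 stayed at or under 0.287 FPKM in all 12 libraries, and the astrocyte filament Gfap lay between 1.44 and 6.89 FPKM. Other genes of the astrocyte list, which are less particular to these cells, were higher, such as the glycolytic enzyme Aldoc, whose NC level was 22.3 ± 1.59 FPKM and CIRBP level 87.4 ± 3.76 FPKM (SD, n = 3). The gap junction protein Gja1 had 10.1 ± 0.209 and 17.5 ± 0.752 FPKM there. S100b, which astrocytes and Schwann cells both make, was abundant, at 110.5 to 188 FPKM. Sox10, a transcription factor of Schwann and oligodendrocyte lineages, lay between 122.8 and 203 FPKM in all 12 libraries, and Ngfr, the low-affinity neurotrophin receptor, between 80.8 and 343 FPKM. Endothelial, leukocyte and epithelial lists were low, with summed levels of 2.81 to 8.33, 12.0 to 18.8 and 15.8 to 18.5 FPKM per library. Of their 8 markers each, 4, 3 and 4 had a row. In bulk RNA, fewer cells of a type and less RNA per cell cannot be told apart.

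Sequence upstream of the genes is shown for 3 panel genes that were low in NC and CIRBP and higher in the si groups (Lum, Postn, Eng) and for 1 that ran the other way (Pdgfra). Each window runs from 250 bases before to 50 bases after the start, 5′ to 3′ on the gene's strand, from RefSeq on GRCr8, where 7 of the 10 genes had an entry. Capitals mark matches on either strand to an E-box (CANNTG), an AP-1 element (TGANTCA) or a TATA box (TATAAA).
Lum, chr7:34245456-34245755, plus strand: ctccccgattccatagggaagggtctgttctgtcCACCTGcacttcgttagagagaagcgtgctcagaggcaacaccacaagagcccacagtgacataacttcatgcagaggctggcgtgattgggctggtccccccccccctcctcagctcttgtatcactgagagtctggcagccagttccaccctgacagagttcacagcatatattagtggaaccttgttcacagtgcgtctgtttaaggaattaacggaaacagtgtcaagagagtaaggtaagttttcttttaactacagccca
Postn, chr2:140677811-140678110, plus strand: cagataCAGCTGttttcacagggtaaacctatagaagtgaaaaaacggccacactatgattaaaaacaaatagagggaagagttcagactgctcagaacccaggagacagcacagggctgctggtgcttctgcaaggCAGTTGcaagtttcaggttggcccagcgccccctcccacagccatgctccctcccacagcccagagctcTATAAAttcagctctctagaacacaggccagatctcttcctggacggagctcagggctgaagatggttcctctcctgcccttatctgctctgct
Eng, chr3:36332029-36332328, plus strand: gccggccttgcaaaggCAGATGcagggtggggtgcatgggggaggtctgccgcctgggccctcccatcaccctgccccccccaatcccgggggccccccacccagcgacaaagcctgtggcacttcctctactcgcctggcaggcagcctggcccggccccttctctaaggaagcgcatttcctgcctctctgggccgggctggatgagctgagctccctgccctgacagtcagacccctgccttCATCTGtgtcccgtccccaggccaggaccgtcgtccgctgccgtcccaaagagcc
Pdgfra, chr14:33408467-33408766, minus strand: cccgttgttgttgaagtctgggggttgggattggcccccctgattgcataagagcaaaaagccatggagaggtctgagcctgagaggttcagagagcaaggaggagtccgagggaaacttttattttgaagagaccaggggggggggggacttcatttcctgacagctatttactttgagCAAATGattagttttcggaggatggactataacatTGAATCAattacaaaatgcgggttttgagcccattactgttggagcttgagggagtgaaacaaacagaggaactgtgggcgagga
The Lum window holds 1 E-box, at -216, and the Postn window 2 E-boxes, at -244 and -113, and a TATA box at -44. The Eng window holds 2 E-boxes, at -234 and -5, and the Pdgfra window an E-box at -70 and an AP-1 element at -35. Positions give the first base of the match, counted from the start. Among all 33469 windows of this length, 72.1% hold an E-box, 14.2% a TATA box and 7.33% an AP-1 element. No CArG box, TEAD element (GGAATG) or GC box (GGGCGG) lies in these 4 windows, against 1.64%, 14.2% and 33.1% of all windows. The letters the 3 higher genes share, an E-box, are also in the Pdgfra window and in most promoters. Dcn and Lum are neighbours on 1 chromosome of GRCr8, with 0 protein-coding genes between them.

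Library 1 of si-NC stood apart from libraries 2 and 3 of its group in 6 of the 9 panel genes. It held 3.85% of the level of library 2 for Dcn, 5.58% for Lum, 5.91% for Thy1, 6.69% for Postn, 7.47% for Eng and 15.7% for Pdgfrb. Library 3 lay between the other two for each of these genes, at 50% to 70.5% of library 2. Such a drop to under 20% was met in 4.38% of the 13230 rows with at least 1 FPKM in library 2, in 4.10% with library 3 between the others, and the median row stood at 108%. Vim, S100a4 and Pdgfra went the other way, at 107%, 123% and 156%. Most muscle markers moved with the 6 genes. Of the 9 smooth muscle and pericyte markers with at least 1 FPKM in library 2, 6 fell under 20%, as did 6 of 8 skeletal and cardiac markers. The summed smooth muscle and pericyte level was 312 FPKM in library 1, 1551.4 in library 2 and 1234.9 in library 3, against 189 to 229.7 FPKM in NC and CIRBP and 872 to 1071.3 FPKM in si-CIRBP. The summed skeletal and cardiac level was 12.9, 122.5 and 52.6 FPKM, against 8.50 to 12.8 FPKM in NC and CIRBP and 29.4 to 170.5 FPKM in si-CIRBP. All 5 oligodendrocyte and Schwann lineage markers at 1 FPKM or more were higher in library 1 than in library 2, as were 63.2% of all tested rows. The part of these markers in the panel's values was not tested.

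**Figure D1:**
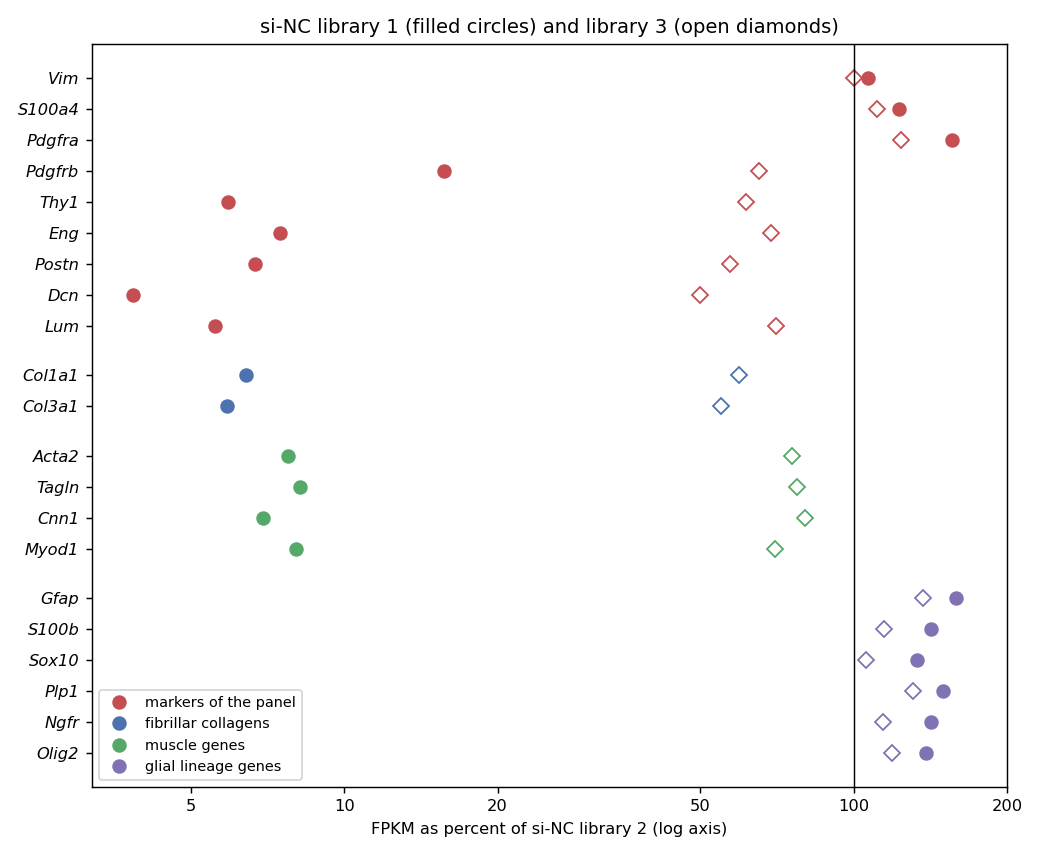
FPKM of library 1 (filled circles) and library 3 (open diamonds) of si-NC as a percent of library 2, on a log axis, for the panel, fibrillar collagens, muscle genes and glial lineage genes. The muscle genes plotted, Acta2, Tagln, Cnn1 and Myod1, and the glial genes plotted were chosen from longer lists. Thy1, Eng, Postn, Dcn, Lum, the collagens and these muscle genes sit between 3.85% and 8.19% in library 1. Pdgfrb sits at 15.7%, and the plotted glial genes between 133% and 159%. Genes of the muscle lists that are not plotted reach 166%, and an astrocyte gene that is not plotted lies at 7.33%.

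Groups were compared with limma on log2(FPKM + 1) over 14257 genes that reached 1 FPKM in at least 3 libraries, and a gene was called at a Benjamini-Hochberg adjusted p under 0.05. All 9 panel genes passed this filter, but Thy1, Dcn, Lum and Eng passed it only through the si groups, so the counts below describe the panel and do not test it. In these counts, rose and fell mean called higher and called lower. S100a4 and Pdgfra were called higher in CIRBP than in NC, and none of the 9 was called lower. Vim, Pdgfrb and Eng lay below NC without overlap in CIRBP but were not called. Of all genes tested, 54.0% were called in this comparison, 19.7% as higher and 34.2% as lower. In the libraries labelled si-CIRBP, S100a4 alone of the 9 genes was called against si-NC, as higher, where 29.6% of all genes were called, 9.08% as higher. The changes of these comparisons differed for Pdgfra alone of the 9, more positive in CIRBP, against 17.8% of all genes, 6.87% in that direction. Between the control groups, Thy1, Eng, Postn, Lum and Pdgfrb were higher and S100a4 and Pdgfra lower in si-NC than in NC, where 34.4% of all genes were called, 12.5% as higher and 21.9% as lower. The 9 genes had a median log2 change of 0.02 between NC and CIRBP, where the median of all genes was -0.08, and of 0.36 between si-NC and si-CIRBP, where it was -0.04. The median of the 9 differences was -0.10 (all genes -0.06), and between the control groups it was 1.37 (all genes -0.07). The libraries were scaled as deposited. With all libraries brought to one median, these values for all genes became 0.01, 0.05, -0.04 and -0.01. The split of all called genes moved with it, from 2814 higher and 4881 lower to 3890 and 3897 in CIRBP against NC, and from 1294 and 2924 to 2308 and 1999 in si-CIRBP against si-NC. It moved from 980 and 1555 to 1149 and 1519 for the difference, or to 1395 and 1276 with scaling by median ratios, and from 1783 and 3126 to 2260 and 2389 in si-NC against NC.

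**Figure D2:**
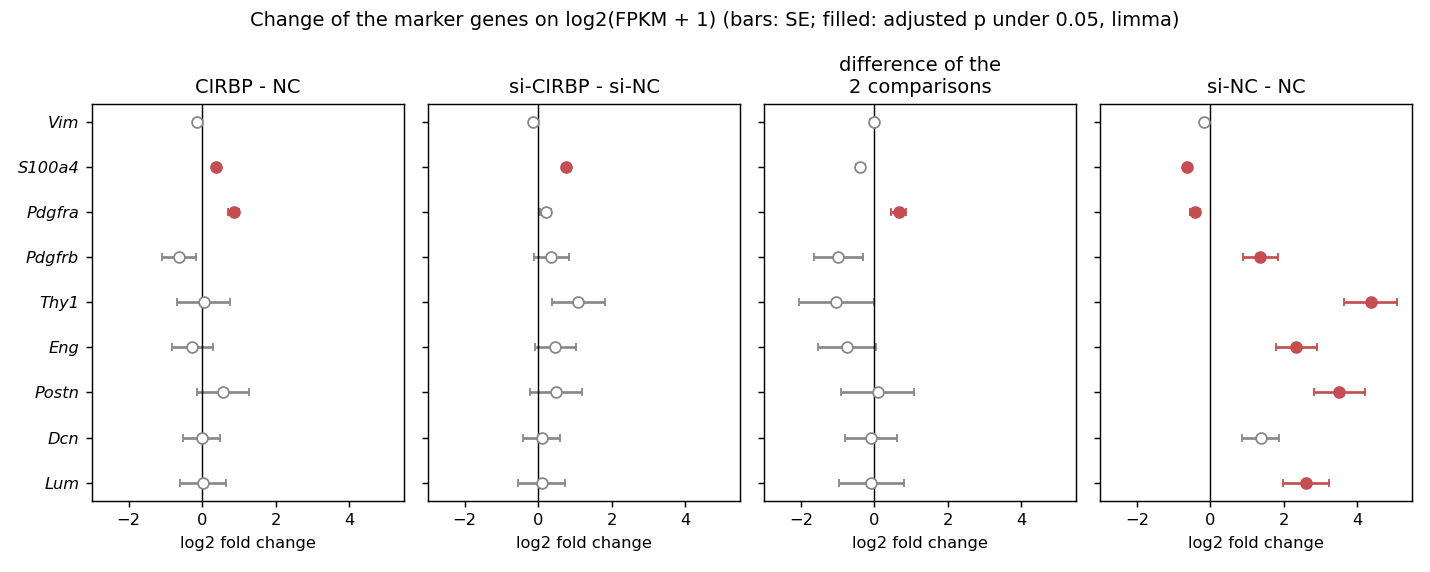
Log2 fold change on log2(FPKM + 1) of the 9 panel genes in the 4 comparisons, with bars of 1 SE, filled where the adjusted p was under 0.05. S100a4 and Pdgfra are filled in CIRBP - NC, S100a4 alone in si-CIRBP - si-NC, Pdgfra alone in the difference, and all but Vim and Dcn in si-NC - NC.

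Vim, the intermediate filament protein of mesenchymal cells, had the highest mean of the panel genes in each of the 4 groups. It stood at 2597.0, 2570.2 and 2610.1 FPKM in NC, at 2249.0, 2366.3 and 2372.7 FPKM in CIRBP, at 2396.9, 2237.4 and 2237.5 FPKM in si-NC and at 1931.1, 2141.3 and 2158.1 FPKM in si-CIRBP. Each treated group lay below its control without overlap, yet neither change passed the test. The change was -0.15 on the log2 scale (SE 0.0677, adjusted p = 0.0765 with limma) in CIRBP and -0.14 (adjusted p = 0.142) in si-CIRBP. Groups without overlap made up 74.7% of all genes in CIRBP against NC and 36.1% in si-CIRBP against si-NC. The fall in CIRBP passed in a fit of the 6 NC and CIRBP libraries alone (adjusted p = 0.0290), and with libraries scaled to one median or by median ratios its value shrank to -0.02 and -0.01. Among 9 other intermediate filament genes tested, 4 rose and 1 fell in CIRBP, and 2 rose and 0 fell in si-CIRBP. In either direction, 54.0% and 29.6% of all genes were called. By direction, 19.7% of all genes rose and 34.2% fell in CIRBP, and 9.08% rose and 20.5% fell in si-CIRBP. Nes, the filament nestin of progenitor and Schwann lineage cells, rose in both, from 22.8 ± 1.11 to 57.4 ± 1.95 FPKM (SD, n = 3; log2 change 1.30, adjusted p = 8.87e-08 with limma) and from 21.2 ± 1.39 to 38.1 ± 1.09 FPKM (0.82, adjusted p = 8.82e-06).

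S100a4, a small calcium-binding protein also called fibroblast-specific protein, rose in both comparisons. It stood at 1769.7, 1701.7 and 1783.7 FPKM in NC and at 2330.1, 2157.3 and 2356.4 FPKM in CIRBP. In si-NC it stood at 1250.9, 1019.0 and 1126.5 FPKM and in si-CIRBP at 1777.3, 1951.4 and 2020.9 FPKM. No treated library overlapped its control group, and si-NC was the lowest of the 4 groups. On the log2 scale it changed by 0.38 (SE 0.0849, adjusted p = 0.00309 with limma) in CIRBP, 0.76 (SE 0.0849, adjusted p = 0.000144) in si-CIRBP and -0.63 (adjusted p = 0.000619) in si-NC against NC. Without si-NC library 1 the last 2 values were 0.84 and -0.71, and the calls held. The difference of the 2 changes, -0.38, missed the threshold (adjusted p = 0.0511) and passed it without si-NC library 1 (-0.46, adjusted p = 0.0164) or without si-CIRBP library 1 (-0.44, adjusted p = 0.0173). Of 9 other S100 genes tested, 4 rose and 1 fell in CIRBP, and the same 4, S100a1, S100a3, S100a6 and S100a11, rose in si-CIRBP, where 0 fell. Among all genes, 19.7% rose and 34.2% fell in CIRBP, and 9.08% rose and 20.5% fell in si-CIRBP. S100a6, which lies in the same gene family and binds calcium too, went from 411 ± 17.1 to 567 ± 47.7 FPKM (a log2 change of 0.46, adjusted p = 0.00888 with limma) and from 318 ± 61.2 to 636 ± 64.8 FPKM (1.01, adjusted p = 0.000260). How reads that fit more than 1 member of a gene family were counted is not stated, which bears on single values of S100 genes.

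Pdgfra, the receptor for PDGF-AA and PDGF-CC, rose in CIRBP and was lower in all 6 si-NC and si-CIRBP libraries than in any NC or CIRBP library. It stood at 87.9, 86.4 and 86.0 FPKM in NC and at 165, 160.0 and 152 FPKM in CIRBP. In si-NC it stood at 81.1, 51.9 and 64.4 FPKM and in si-CIRBP at 62.4, 84.7 and 78.7 FPKM. CIRBP did not overlap NC, whereas si-CIRBP and si-NC overlapped. Its log2 change was 0.86 (SE 0.144, adjusted p = 0.000474 with limma) in CIRBP and 0.20 (SE 0.144, adjusted p = 0.328) in si-CIRBP. Without library 1 of both si groups the latter was 0.49 and passed the test (adjusted p = 0.00222). The difference of the changes was 0.66 (SE 0.204, adjusted p = 0.0476), and 14 of its 21 alternatives lost the call with the direction kept (adjusted p up to 0.104). It was 0.50 (adjusted p = 0.0551) without si-NC library 1 and 0.53 (adjusted p = 0.0564) without si-CIRBP library 1. Omission of most other single libraries also ended the call and left the direction as it was. The difference was 0.67 (0.0890), 0.66 (0.0939) and 0.66 (0.0955) without NC library 1, 2 or 3 and 0.64 (0.104), 0.66 (0.0973) and 0.69 (0.0729) without CIRBP library 1, 2 or 3. It was 0.67 (0.0856) without si-NC library 3 and 0.70 (0.0672) without si-CIRBP library 3.

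Pdgfrb, the receptor for PDGF-BB and a marker of pericytes, ran against Pdgfra. It stood at 5.99, 6.59 and 6.50 FPKM in NC, at 3.88, 3.57 and 3.85 FPKM in CIRBP, at 5.87, 37.3 and 24.3 FPKM in si-NC and at 21.2, 22.3 and 26.2 FPKM in si-CIRBP. Library 1 of si-NC lay at the NC level, and the other 5 si libraries lay above every NC and CIRBP library. CIRBP lay below NC without overlap, but the log2 fold change of -0.63 did not pass over all 12 libraries (SE 0.467, adjusted p = 0.289 with limma). A fit of the 6 NC and CIRBP libraries alone gave the same value with an adjusted p of 0.000102. The value in si-CIRBP against si-NC, 0.36 (adjusted p = 0.607), turned to -0.37 (adjusted p = 0.0985) without si-NC library 1. In NC, Pdgfra stood above Pdgfrb in all 3 libraries, and in si-NC library 2 at 51.9 against 37.3 FPKM.

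Of the PDGF ligands, Pdgfa, Pdgfb and Pdgfc had a row and all 3 were tested. Pdgfc rose in both comparisons, from 25.3 ± 0.0684 to 36.2 ± 0.265 FPKM (a log2 change of 0.50, adjusted p = 2.13e-06 with limma) and from 21.3 ± 0.327 to 29.3 ± 0.480 FPKM (0.44, adjusted p = 2.97e-05). Pdgfa rose too (0.22, adjusted p = 0.00102, and 0.32, adjusted p = 0.000417). Pdgfb, the ligand of both receptors, split the si groups in another way than the receptors did. It stood at 32.9, 26.3 and 27.9 FPKM in si-NC and at 33.4, 3.55 and 3.67 FPKM in si-CIRBP, so that si-CIRBP library 1 matched si-NC and libraries 2 and 3 were near the 3.21 to 4.33 FPKM of NC. These 3 ligands were called in si-NC against NC, where 34.4% of all genes were called. Pdgfb was higher (2.61, adjusted p = 0.00872 with limma) and Pdgfa and Pdgfc were lower (-0.19 and -0.24).

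Thy1, a glycolipid-anchored surface protein of fibroblasts and neurons, had the largest change of the 9 genes between the control groups on log2(FPKM + 1), while with voom on whole fragments Lum did (8.27 against 7.17). It stood at 0.0786, 0.210 and 0.155 FPKM in NC and at 0.178, 0.135 and 0.263 FPKM in CIRBP, which is 3 to 9 fragments per library. In si-NC it stood at 3.86, 65.3 and 40.1 FPKM (142, 2425 and 1402 fragments) and in si-CIRBP at 56.8, 42.9 and 49.5 FPKM. All 6 si libraries lay above all 6 others, and within si-NC the libraries spread more than the 3 of si-CIRBP did. Its log2 change was 4.37 in si-NC against NC (SE 0.721, adjusted p = 0.00182 with limma), 0.05 in CIRBP (adjusted p = 0.969) and 1.09 in si-CIRBP (SE 0.721, adjusted p = 0.289). Without si-NC library 1 these were 5.51 for si-NC against NC (adjusted p = 4.86e-08) and -0.05 for si-CIRBP (adjusted p = 0.869). With voom on whole fragments the call for si-NC against NC was lost (adjusted p = 0.106).

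Eng, endoglin, a co-receptor for transforming growth factor beta and bone morphogenetic proteins, followed Thy1. It stood at 0.309, 0.539 and 0.490 FPKM in NC, at 0.178, 0.212 and 0.205 FPKM in CIRBP, at 1.13, 15.1 and 10.4 FPKM in si-NC and at 9.49, 8.29 and 9.68 FPKM in si-CIRBP. All 6 si libraries lay above all 6 others, and CIRBP lay below NC without overlap. On the log2 scale the change was 2.34 in si-NC against NC (SE 0.563, adjusted p = 0.0103 with limma), -0.27 in CIRBP (adjusted p = 0.732) and 0.47 in si-CIRBP (adjusted p = 0.573). Without si-NC library 1 they were 3.24 for si-NC against NC (adjusted p = 2.12e-07) and -0.42 for si-CIRBP (adjusted p = 0.0508). The call for si-NC against NC was lost with voom on whole fragments (3.69, adjusted p = 0.0663) and in a fit of those groups only (adjusted p = 0.0514). The fall in CIRBP passed in the fit of those 6 libraries alone (adjusted p = 0.0140). Of the 6 tested receptors that endoglin works with, 2 rose and 2 fell in CIRBP, 1 rose and 1 fell in si-CIRBP, and 2 were higher in si-NC than in NC. A receptor of this list at or under 0.0330 FPKM in NC and CIRBP passed the filter only through the si groups, so these counts describe the list and do not test it. Among all genes, 19.7% rose and 34.2% fell in CIRBP, 9.08% rose and 20.5% fell in si-CIRBP, and 12.5% were higher in si-NC. Acvr1, a bone morphogenetic protein receptor, fell in both comparisons (-0.37, adjusted p = 7.03e-05 with limma, and -0.29, adjusted p = 0.00131). Tgfbr2, the type II receptor for transforming growth factor beta, rose by 0.29 in CIRBP (adjusted p = 0.00383).

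**Figure D3:**
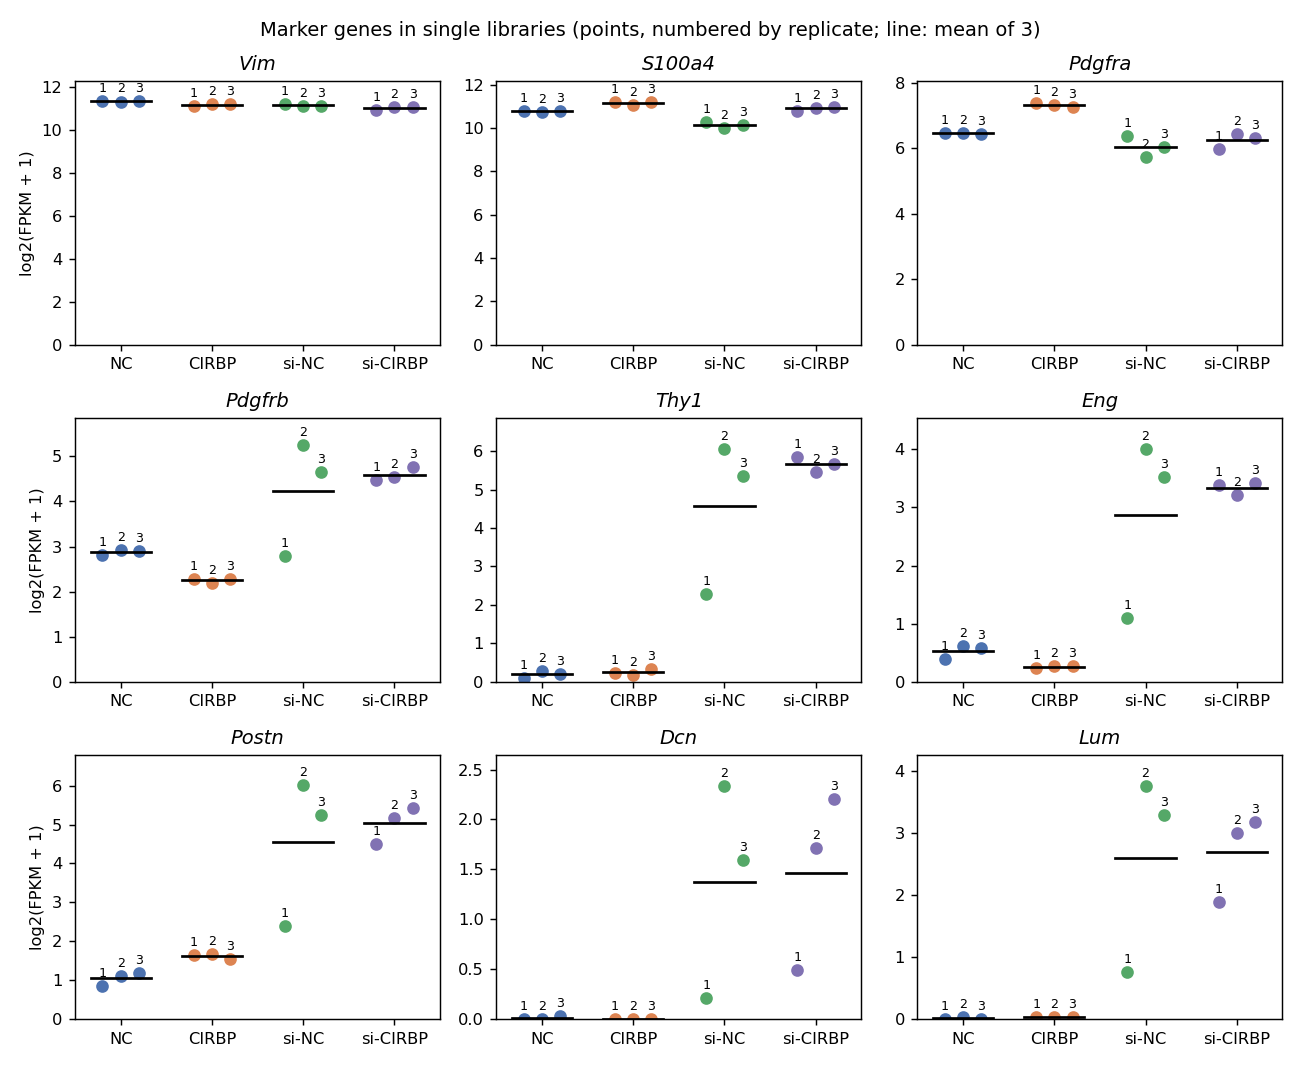
Level of the 9 panel genes as log2(FPKM + 1) in each of 12 libraries (points numbered by replicate, lines at group means of 3). Vim, S100a4 and Pdgfra are high throughout, Pdgfrb is intermediate, and Thy1, Eng, Dcn and Lum are near 0 in NC and CIRBP, with si-NC library 1 below the other si libraries.

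Postn, periostin, a matrix protein secreted by activated fibroblasts, was low in NC and CIRBP and spread widely in the si groups. It stood at 0.808, 1.14 and 1.27 FPKM in NC, at 2.13, 2.18 and 1.90 FPKM in CIRBP, at 4.27, 63.9 and 36.6 FPKM in si-NC and at 21.8, 35.1 and 42.2 FPKM in si-CIRBP. CIRBP lay above NC without overlap, and all 6 si libraries lay above both. The log2 change was 3.51 in si-NC against NC (SE 0.703, adjusted p = 0.00466 with limma) and held under every alternative run for it. In CIRBP it was 0.57 (SE 0.703, adjusted p = 0.531), which passed in the fit of those 6 libraries alone (adjusted p = 0.00188). In si-CIRBP it was 0.49 (adjusted p = 0.646) and turned to -0.59 (adjusted p = 0.139) without si-NC library 1, where si-NC against NC was 4.58 (adjusted p = 1.55e-06). The difference of the changes, 0.09 (adjusted p = 0.967), then became 1.16 and passed the test (adjusted p = 0.0494).

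Decorin and lumican, small leucine-rich proteoglycans that bind collagen fibrils, were at or near 0 in NC and CIRBP. Dcn had 0, 0 and 1 fragments in NC and 0 in each CIRBP library, where a count of 0 allows up to 3 fragments. It had 8, 210 and 99 fragments in si-NC and 22, 125 and 173 in si-CIRBP, or 0.155, 4.03 and 2.02 FPKM and 0.408, 2.27 and 3.60 FPKM. Library 1 was the lowest in both si groups. Over the 3 libraries, 317 fragments in si-NC against 1 in NC gave a depth-scaled ratio of 302 (exact 95% interval 53.8 to 11951.8, which covers counting error only). On log2(FPKM + 1) the change of Dcn was 1.37 and missed the threshold (SE 0.503, adjusted p = 0.0573 with limma). Without si-NC library 1 it was 1.95 and passed (adjusted p = 0.00403).

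Lum had 0, 1 and 0 fragments in NC and 1 in each CIRBP library. In si-NC it had 39, 706 and 469 fragments and in si-CIRBP 159, 420 and 423, or 0.699, 12.5 and 8.84 FPKM and 2.72, 7.06 and 8.13 FPKM. Library 1 was again the lowest of each si group, and no si library overlapped NC or CIRBP. The depth-scaled ratio of 1214 to 1 fragments between si-NC and NC was 1155.2 (exact 95% interval 207 to 45666.1). The log2 change was 2.60 (adjusted p = 0.0107 with limma), and 3.52 (adjusted p = 2.50e-05) without si-NC library 1. It was lost with voom on whole fragments (8.27, adjusted p = 0.152). In si-CIRBP against si-NC, neither Dcn (0.09, adjusted p = 0.914) nor Lum (0.09, adjusted p = 0.931) passed, and both turned negative without si-NC library 1, to -0.49 (adjusted p = 0.402) and -0.83 (adjusted p = 0.0786).

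Of 5 other proteoglycans of this family with a row, Bgn (biglycan) and Prelp reached the filter, and both rose in both comparisons. Among all genes, 19.7% rose in CIRBP and 9.08% in si-CIRBP. Ogn, one of the 3 that did not reach the filter, stayed at or under 0.0450 FPKM in NC and CIRBP. It was listed at 0, 1.05 and 0 FPKM in si-NC, with its highest value in library 2 as for Dcn and Lum. Prelp rose from 40.8 ± 0.702 FPKM in NC to 95.3 ± 1.83 FPKM in CIRBP (a log2 change of 1.20, adjusted p = 3.91e-06 with limma), and from 47.4 ± 6.91 FPKM in si-NC to 68.4 ± 7.98 FPKM in si-CIRBP (0.52, adjusted p = 0.00326). Bgn went from 372 ± 2.62 to 611 ± 26.5 FPKM (0.71, adjusted p = 0.00162) and from 355 ± 90.5 to 470.5 ± 33.8 FPKM (0.43, adjusted p = 0.0436). The latter call was lost in 8 of 16 alternatives, and the value fell to 0.25 without si-NC library 1 (adjusted p = 0.0943). Neither gene was called in si-NC against NC.

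The wider list of fibroblast genes held both patterns. Of its 11 tested genes, 6 rose and 0 fell in CIRBP, 2 rose and 0 fell in si-CIRBP, and 6 were higher and 2 lower in si-NC than in NC. A gene of this list at or under 0.0759 FPKM in NC and CIRBP passed the filter only through the si groups, so these counts describe the list and do not test it. Among all genes, 19.7% rose and 34.2% fell in CIRBP, and 9.08% rose and 20.5% fell in si-CIRBP. In si-NC against NC, 12.5% of all genes were higher and 21.9% lower. Clec3b, tetranectin, rose in CIRBP (2.76, adjusted p = 2.07e-08 with limma) and in si-CIRBP (2.42, adjusted p = 9.67e-08), from 4.92 ± 0.287 to 39.1 ± 3.61 FPKM and from 1.67 ± 0.169 to 13.3 ± 1.45 FPKM. The fibrillar collagens Col1a1 and Col3a1 followed Thy1 and Postn instead. Col1a1 stood at 1.79 ± 0.585 FPKM in NC, at 1.34 ± 0.401 FPKM in CIRBP, and at 42.4, 661 and 395 FPKM in si-NC (6.35 against NC, adjusted p = 0.000420). Col3a1 was higher by 6.24 (adjusted p = 0.000474). Of 9 smooth muscle and pericyte genes tested, 6 were higher and 0 lower in si-NC than in NC, against 12.5% and 21.9% of all genes. Several of the 9, such as Cnn1, passed the filter only through the si groups, so this count describes the list and does not test it. Acta2, smooth muscle actin, stood at 73.8, 954 and 722 FPKM in si-NC against 1.41 ± 0.915 FPKM in NC (7.35, adjusted p = 0.000181 with limma). Myod1, the myogenic factor, which also passed the filter only through the si groups, was higher by 3.27 (adjusted p = 0.00273). In si-CIRBP against si-NC, 0 of these 9 smooth muscle genes were called by limma, against 29.6% of all genes. The 0 does not show that they were unchanged, because si-NC was split. The summed level of the list in si-NC libraries 2 and 3, 1551.4 and 1234.9 FPKM, lay above the 872 to 1071.3 FPKM of si-CIRBP. In si-NC library 1, at 312 FPKM, it lay below.

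**Figure D4:**
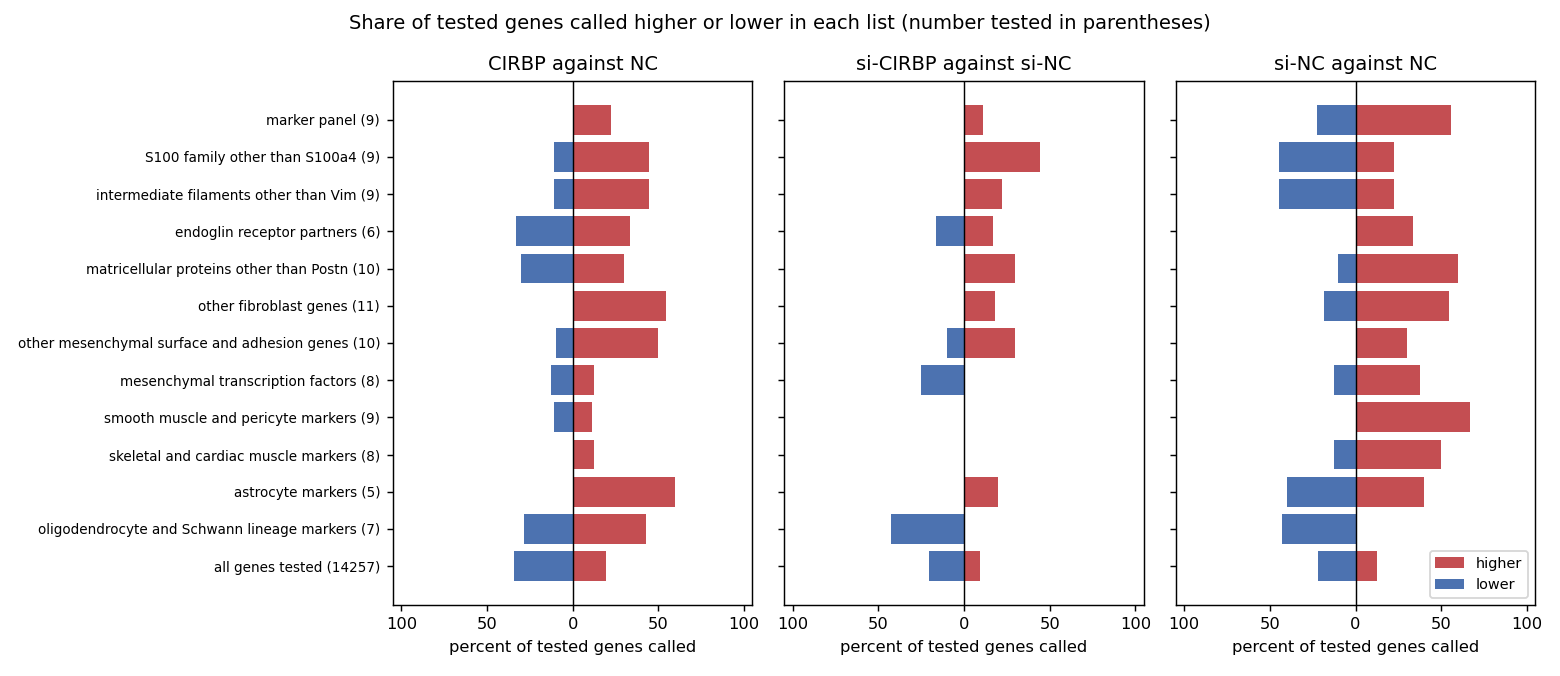
Percent of tested genes called higher (right) or lower (left) in the marker panel, in 11 lists with at least 5 tested genes and in all 14257 genes tested, for 3 comparisons. The panel has 2 of 9 called higher in CIRBP against NC, 1 of 9 in si-CIRBP against si-NC, and 5 higher and 2 lower in si-NC against NC.

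Across the whole table, 5 panel genes (Thy1, Eng, Postn, Dcn and Lum) lay higher in all 6 si-NC and si-CIRBP libraries than in all 6 NC and CIRBP libraries, and 1, Pdgfra, lay lower. This held for 7.04% and 7.22% of all genes tested. In si-NC against NC alone, 8 of the 9 panel genes had groups without overlap, 5 as higher and 3 as lower, against 53.1% of all genes. The table's column names for NC and CIRBP begin with ad, which no label explains, and those for the si groups do not. Whether the arms differed in vector, cells or day is not stated, so the control treatment and any other difference between the arms cannot be told apart. For each panel gene whose group means spanned at least 1 on log2(FPKM + 1), up to 3 genes with the closest pattern over the 12 libraries are named by the root mean square difference after centring. Gm2a, Nid1 and Avpr1a were closest to Thy1 (0.08, 0.13 and 0.16 on the log2 scale). Bmp4 and Hmcn1 were closest to Lum (0.09 and 0.15), and Shc2, Calhm2 and Smo to Eng (0.11, 0.13 and 0.13). PCOLCE2, Ca5b and Taf13 were closest to S100a4 (0.06 to 0.10) and Fgfrl1, Mmp15 and Enpp1 to Pdgfra (0.08 to 0.09). Blvra, Siglec10 and Sh3bp1 were closest to Pdgfrb (0.14 to 0.16). Postn had no row nearer than Rtn2 (0.28), and Frem1 was nearest to Dcn (0.16). Vim spanned less than 1 and was left out.

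In si-NC against NC, where 7 of 9 panel genes were called, the count turned on single libraries. It was 9 without si-NC library 1, which added Vim (-0.21, adjusted p = 0.0390 with limma) and Dcn, and 5 without any other single library of those groups. Each of those 5 omissions lost Pdgfra and Pdgfrb. Pdgfra, -0.42 with all libraries (adjusted p = 0.0461), was then -0.41 (0.109), -0.42 (0.103) and -0.42 (0.0993) without NC library 1, 2 or 3, and -0.26 (0.156) and -0.41 (0.107) without si-NC library 2 or 3. Pdgfrb, 1.36 with all libraries (adjusted p = 0.0451), was 1.32 (0.108), 1.38 (0.0981), 1.37 (0.0986), 0.84 (0.156) and 1.14 (0.144) in the same order.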

How the data were processed

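The authors deposited 1 table of FPKM per gene for 12 paired-end poly-A libraries, with rat Ensembl identifiers, per the file headers. Bowtie2 2.3.3.1, Cufflinks 2.2.1, GRCm38 and mm10 are named, without a role, per the submitters' processing notes. The sources used here do not give the annotation, the strand setting or the treatment of shared reads. For all 18344 rows (100.0%), the FPKM of a row were whole multiples of 1 step per gene and library depth, within 0.001, and the smallest such whole numbers were taken as fragments. Intervals from them cover counting error only. They sum to 24205479 to 29652952 per library, which sets the precision of low values.

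Groups came from the titles. Log2(FPKM + 1) was fitted in R 4.3.3 by limma 3.58.1 with trended eBayes, 1 coefficient per group over 12 libraries and no replicate block (8 residual degrees of freedom, 2.53 prior ones), over 14257 rows with at least 1 FPKM in 3 libraries. Two-sided p-values were adjusted over these rows by the Benjamini-Hochberg procedure. The pseudocount of 1 shrinks fold changes of low genes. The p-values weigh each change against 1 spread per gene, pooled over libraries within all 4 groups and moderated across genes. The wider spread of the si groups therefore enters the tests of CIRBP against NC too. The fit was tested on simulated data.

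The members and lists were chosen with earlier results of these data known. Text names all 10 members, Cirbp, up to 3 called genes per list and comparison with the smallest adjusted p, the gene of each list with the highest mean, and 3 nearest patterns per member, of which 1 gene is not reported here. S100a3, Nkx2-5, Aldh1l1 and Ogn fall outside this rule and were named after their values were seen. Sequences are from RefSeq on GRCr8. Alternatives were another pseudocount, no filter, scaling to one median or by median ratios, only the groups compared, a variance factor per group, no trend, the replicate block, single libraries left out and library 1 of both si groups left out. Recovered fragments with voom of limma were added after seeing the data.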

Additional observations from a re-analysis of the deposited data

Results flagged for a closer look

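The change of Pdgfra differed between CIRBP against NC and si-CIRBP against si-NC by 0.66 on the log2 scale (SE 0.204, adjusted p = 0.0476 with limma, a test of the difference itself). All 3 CIRBP libraries, at 152 to 165 FPKM, lay above all 3 NC libraries, at 86.0 to 87.9 FPKM. The si-CIRBP libraries, at 62.4 to 84.7 FPKM, overlapped the si-NC libraries, at 51.9 to 81.1 FPKM. The adjusted p lay between 0.0101 and 0.104 over 21 alternatives. Library 1 of si-NC was the highest of its group and library 1 of si-CIRBP the lowest of its own, and without both the difference was 0.37 (adjusted p = 0.0260).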

How the results depend on the processing

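Of the 9 panel genes, 2 were called in CIRBP against NC, against 6 in a fit of those groups only and 4 with a variance factor per group. In si-CIRBP against si-NC 1 was called, against 4 without library 1 of si-NC and si-CIRBP. For the difference 1 was called, against 0 with no filter, 2 with scaling to one median, 3 without library 1 of both si groups and 0 to 2 with single libraries left out. In si-NC against NC 7 were called, against 4 in a fit of those groups only and 4 from recovered fragments with voom. Called S100a4 changes held under every alternative run in the 3 comparisons of groups, as did Pdgfra in CIRBP against NC.

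Over all genes, calls in si-CIRBP against si-NC fell from 4218 to 1155 in a fit of those groups only and to 2019 with a variance factor per group. For the difference they lay between 1596 and 4503 with single libraries left out and at 5899 without library 1 of both si groups, against 2535. In si-NC against NC they lay between 3085 and 5894 and at 8188, against 4909.

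Directions that turned belonged to changes that were not called. With single libraries left out, si-CIRBP against si-NC ranged from -0.05 to 1.84 for Thy1, -0.37 to 0.87 for Pdgfrb, -0.49 to 0.58 for Dcn, -0.83 to 0.67 for Lum, -0.59 to 1.22 for Postn, -0.42 to 1.04 for Eng and -0.02 to 0.11 for Cirbp. Without library 1 of both si groups these were -0.15 for Thy1, -0.31 for Pdgfrb, -0.01 for Dcn, -0.43 for Lum, -0.32 for Postn and -0.45 for Eng, where Lum and Eng passed the test (adjusted p = 0.0356 and 0.0462 with limma). The difference ranged from -1.78 to 0.10 for Thy1, -0.06 to 0.02 for Vim, -0.59 to 0.48 for Dcn, -0.65 to 0.85 for Lum, -0.65 to 1.16 for Postn and -1.31 to 0.16 for Eng. Without library 1 of both si groups it was 0.20 for Thy1, 0.44 for Lum and 0.18 for Eng. Scaling gave 0.01 and 0.06 for Vim, and voom gave 0.63 for Lum. Dcn in CIRBP against NC ranged from -0.02 to 0.00. The cause was not tested.

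Same-numbered libraries did not deviate together. Their correlations were 0.10, 0.05 and 0.10 for NC and CIRBP, 0.01, -0.09 and 0.04 for si-NC and si-CIRBP, and 0.01, -0.03 and -0.03 for NC and si-NC. With the replicate block 0 panel genes were called for the difference (Pdgfra 0.66, adjusted p = 0.0810), and 7 in si-NC against NC, Dcn gained and Pdgfra lost.

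Of 77 called results of other named genes, 18 lost the call under at least 1 of 15 to 21 alternatives and 0 reversed. The libraries of the si groups spread more, with a median SD on the log2 scale of 0.133 in si-NC and 0.147 in si-CIRBP against 0.0539 in NC and 0.0570 in CIRBP.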

Other observations

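Of 10 tested matricellular proteins (matrix proteins that act as signals more than as scaffold) besides Postn, 3 rose and 3 fell in CIRBP and 3 rose and 0 fell in si-CIRBP. In either direction, 54.0% and 29.6% of all genes were called. By direction, 19.7% of all genes rose and 34.2% fell in CIRBP, and 9.08% rose and 20.5% fell in si-CIRBP. Spp1, osteopontin, went from 1117.9 ± 61.0 FPKM in NC to 3714.2 ± 131 FPKM in CIRBP (a log2 change of 1.73, adjusted p = 1.22e-06 with limma) and from 1273.4 ± 202 to 3266.7 ± 443 FPKM in si-CIRBP (1.36, adjusted p = 3.64e-05). Tnc, tenascin C, rose by 0.69 (adjusted p = 0.000334) and 0.78 (adjusted p = 0.000569), and Fbln1, a basement membrane protein, by 1.11 (adjusted p = 1.52e-07) and 0.67 (adjusted p = 2.11e-05). Fbln5, an elastic fibre protein, followed Postn instead, with 0.268 ± 0.0744 FPKM in NC against 18.3 ± 13.9 FPKM in si-NC (3.44, adjusted p = 0.00347). It passed the filter only through the si groups. Fap belongs to the dipeptidyl peptidases, of which 0 of 4 tested rose and 3 fell in CIRBP, while 0 rose and 1 fell in si-CIRBP. Among all genes, 34.2% fell in CIRBP and 20.5% in si-CIRBP. Dpp7, a lysosomal member, went from 77.9 ± 1.78 to 16.1 ± 0.733 FPKM in CIRBP (-2.21, adjusted p = 1.47e-06). In the other arm it was at 96.4 ± 26.8 and 69.6 ± 5.33 FPKM, and its 2 changes differed by -1.78 (adjusted p = 0.000811).

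Among 10 tested surface and adhesion genes of mesenchymal cells, 5 rose and 1 fell in CIRBP and 3 rose and 1 fell in si-CIRBP. The shares of all genes were 19.7% higher and 34.2% lower in CIRBP and 9.08% higher and 20.5% lower in si-CIRBP, or 54.0% and 29.6% in either direction. Nt5e, the ecto-enzyme CD73, rose by 1.44 (adjusted p = 0.000118 with limma), from 9.93 ± 0.173 to 28.7 ± 1.38 FPKM, and Itgb1, the beta 1 integrin, by 0.87 (adjusted p = 5.34e-05). Of 8 tested mesenchymal transcription factors, Twist1 rose in CIRBP (0.98, adjusted p = 0.000318) and Zeb2 fell (-1.04, adjusted p = 0.00107). Zeb2 fell in si-CIRBP too (-0.94, adjusted p = 0.00501), a call that ended when the 6 si libraries were fitted by themselves (adjusted p = 0.0689). Ngfr went from 300.1 ± 0.211 to 84.0 ± 5.30 FPKM in CIRBP (-1.83, adjusted p = 5.51e-06) and from 286 ± 52.2 to 133.8 ± 30.1 FPKM in si-CIRBP (-1.10, adjusted p = 0.000711).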
